A study of Mus musculus with 8 samples.

Results

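The potassium channel genes described here were all genes whose symbol begins with Kcn, a subunit letter or letters and a number. They were looked up in the 3' UTR, CDS, 5' UTR and intron columns of a table of Argonaute-bound RNA clusters from mouse forebrain. The name rule found 64 genes in 905 of the 70142 clusters. One of them, Kcnq1ot1, is a long non-coding RNA that only shares its name with the channel family, and it is described separately at the end. The other 63 genes encode channel subunits or their auxiliary proteins. They held 891 clusters (1.27% of all) and 25255 of the 1834586 reads (1.38%). No cluster of theirs named more than 1 gene.

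HITS-CLIP crosslinks RNA to Argonaute, the protein that carries miRNAs, and sequences the RNA fragments that come down with it. The study was made to find where miRNAs pair with RNA in Camk2a neurons of the forebrain. Rosa-Stopfl/fl-Flag-Ago2 mice that also carried Camk2a-cre, in which Cre from the Camk2a promoter switched on tagged Ago2, gave 5 libraries (1, 2a, 2b, 3a and 3b). Mice with the Rosa-Stopfl/fl-Flag-Ago2 allele and no Cre gave 3 control libraries (1, 2 and 3). The libraries came from 3 experiments on mice aged 8 to 14 weeks.

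The table gives 1 read count for each cluster over the whole study. Flag-Ago2 mice are therefore not compared with controls in any value below, the background in control mice is not analysed here, and no value has a replicate spread. Shares carry 95% Wilson intervals on numbers of clusters or genes, which cover counting error only. They leave out differences between libraries and treat clusters of 1 gene as independent. Reads carry no molecular identifiers that would mark PCR copies. A cluster's reads depend on how abundant a transcript was, in how many cells, and how much of it Argonaute bound, and these cannot be told apart. Over all genes, clusters held 10 to 17721 reads with a median of 18, and 8110 genes had an exonic cluster. Exonic clusters covered 6 of 6 markers of excitatory forebrain neurons (1077 reads) and 3 of 6 interneuron markers (308 reads; none on Pvalb, Sst or Vip). They also covered 6 of 6 astrocyte markers (1756 reads), 5 of 6 oligodendrocyte markers (748 reads; none on Mog) and 3 of 4 microglia markers (66 reads; none on P2ry12). The part of the other cell types in the channel values was not tested.

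Potassium channels let potassium leave the neuron and so set its resting potential, end action potentials and space them in a train. The pore-forming subunits fall into voltage-gated (Kv), inward rectifier (Kir), leak (K2P) and calcium- or sodium-activated families, and auxiliary subunits such as the KChIP and Kv beta proteins change how they gate and where they go. A miRNA guides Argonaute mostly through its seed, bases 2 to 8 from its 5' end, which pairs with a complementary site that usually lies in the 3' UTR of the mRNA.

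The miRNA families with the most seed matches in the 3' UTR clusters of the channel genes were miR-124, miR-125, miR-128 and miR-485. The families miR-15/16, miR-181, miR-218 and miR-9 shared the next place. Mature sequences of 6 of these families are given with the seed in capitals. Those of miR-27, miR-24 and miR-19 are added because the results and sites below turn on them (RefSeq, GRCm38).
mmu-miR-125b-5p: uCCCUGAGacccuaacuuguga
mmu-miR-128-3p: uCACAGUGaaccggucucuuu
mmu-miR-16-5p: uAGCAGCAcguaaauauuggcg
mmu-miR-181a-5p: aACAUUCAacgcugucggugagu
mmu-miR-218-5p: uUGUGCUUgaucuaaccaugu
mmu-miR-9-5p: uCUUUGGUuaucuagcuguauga
mmu-miR-27b-3p: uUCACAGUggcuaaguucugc
mmu-miR-24-3p: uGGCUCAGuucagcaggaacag
mmu-miR-19b-3p: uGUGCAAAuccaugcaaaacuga
The seeds of miR-128 and miR-27 share most of their bases, shifted by a single position, so 1 site can match both.

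Among the deepest 3' UTR clusters of the channel genes, those of Kcna2, Kcna4 and Kcnq5 held matches that can be placed in a GENCODE M21 transcript (GRCm38, the assembly of mm10). These sites are shown as 30 bases of the mRNA strand with the match in capitals. The Kcnc2 and Kcnk2 sites are added because each holds a full match to miR-128. In Kcnc2 it overlaps a full match to miR-27, and in Kcnk2 it overlaps a match to miR-27 bases 2 to 8.
Kcna2, miR-24, chr3:107111372-107111401 (plus strand): agaataaagcatcCTGAGCCAttacagaag
Kcna4, miR-19, chr2:107297119-107297148 (plus strand): agaatgcaagaatTTTGCACAtaatgggaa
Kcnq5, miR-181, chr1:21399507-21399536 (minus strand): gcagcaagaattgTGAATGTAtcagggacc
Kcnq5, miR-125, chr1:21399500-21399529 (minus strand): gaattgtgaatgtaTCAGGGAccccttctt
Kcnc2, miR-128, chr10:112464531-112464560 (plus strand): ctagattaataggCACTGTGAatatttttt
Kcnk2, miR-128, chr1:189208573-189208602 (minus strand): ctggccttgggatCACTGTGAgttttgcac
An 8-base match pairs with miRNA bases 2 to 8 and has an A opposite the first base. The Kcnq5 match to miR-125 pairs with bases 2 to 7 and has that A. In Kcnq5 the miR-125 match begins right behind the miR-181 match, and they share no base.

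Of 93 protein-coding genes that GENCODE M21 names by the same pattern, 57 had an exonic cluster, that is, one in the 3' UTR, CDS or 5' UTR (61.3%, interval 51.1 to 70.6). Over all 21924 protein-coding genes the share was 35.7%. A 3' UTR cluster was present for 40 channel genes (43.0%, interval 33.4 to 53.2), against 21.5% of all genes. Any sense cluster, introns included, was present for 63 (67.7%, interval 57.7 to 76.4), against 43.2% of all genes. The background counts every protein-coding gene, also those not expressed in brain, and expression was not matched. The 30 annotated genes with no sense cluster included Kcna5, Kcnj1, Kcnj8, Kcnn1, Kcns1, Kcng4 and most Kcne genes. For Kcnh4 and Kcnq1, clusters were listed on the opposite strand only.

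Exonic reads were unevenly spread over the family. The 63 genes had 5839 exonic reads in all; the leading 5 genes held 37.8%, the leading 10 held 54.4% and the leading 20 held 76.1%. Among genes with an exonic cluster, the median was 61 reads for 57 channel genes and 48 reads for 8052 other genes. Scaled to the length of the merged GENCODE exons, the medians were 9.19 reads per kb for 57 channel genes and 9.79 reads per kb for 7765 other protein-coding genes. The higher read sum of the channel genes was therefore not seen per kb. Of the 57 channel genes, 21 (36.8%) had 1 exonic cluster, against 38.2% of the other genes.

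**Figure D1:**
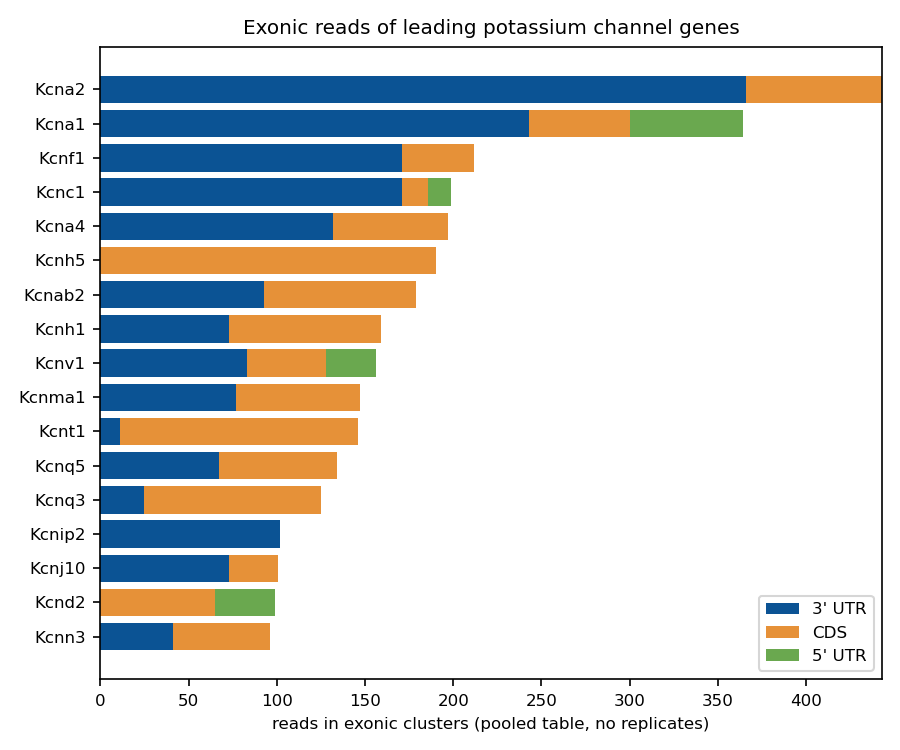
Reads in exonic clusters (x axis, reads) of leading potassium channel genes, 1 bar a gene, coloured by region; the table pools the study and there are no error bars. Kcna2 has 443 reads, of which 366 lie in the 3' UTR, and Kcnh5 has all of its 190 in the CDS.

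Kcnb2, a delayed rectifier of the Kv2 family, had no exonic cluster at all and 30 intron clusters with 685 reads, although its annotated 3' UTR is 12121 bases long.

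The Kv1 genes, whose channels sit on axons and at their initial segments, had reads almost only in exons. Of their 1151 reads, 96.4% were exonic, in 26 3' UTR, 10 CDS and 3 5' UTR clusters. These genes have little intron: 1.21 kb in Kcna1, 1.95 in Kcna2, none in Kcna3, 3.03 in Kcna4 and 26.4 in Kcna6. The part of intron length in this share was not tested. Kcna2 had 443 exonic reads, 366 of them in 11 3' UTR clusters that ran from 10 to 90 reads with a median of 26. Kcna1 had 364 exonic reads, with 243 in 9 3' UTR clusters of 13 to 49 reads, and it had the highest value per kb of exon in the family (76.2). Only 2 of these 9 clusters were centred in the 3' UTR that GENCODE gives Kcna1, and the others lie beyond the annotated gene, so its value per kb divides their reads by an exon length that leaves them out. Kcna4, which encodes an inactivating A-type subunit, had 197 exonic reads in 6 clusters, the deepest with 70 reads in the 3' UTR (chr2:107297111-107297314). Kcna6 had 93 exonic reads with 3 3' UTR clusters of 12, 19 and 47 reads. Kcna3 had 1 CDS cluster of 12 reads.

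The Kv beta subunits, cytoplasmic partners of Kv1, differed among themselves. Kcnab2 had 179 exonic reads in 8 clusters, evenly divided between 4 3' UTR clusters (93 reads) and 4 CDS clusters (86 reads). Kcnab1 had 470 intron reads in 18 clusters and 91 exonic reads, 76 of them in 1 cluster on exon 12 of 14 (chr3:65364576-65364683). Kcnab3 had 13 exonic reads.

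Among Kv7 genes, which carry the M-current that restrains repetitive firing, Kcnq3 and Kcnq5 had mostly intron reads. Kcnq3 had 125 exonic reads and 1381 intron reads in 59 clusters. Kcnq5 had 134 exonic reads, 67 of them in a single 3' UTR cluster (chr1:21399407-21399674), and 1413 intron reads in 60 clusters. Intron reads thus led in both genes.

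The Kv3 genes, known for the narrow action potentials of fast-spiking cells, all had 3' UTR clusters, and 49.0% of their 1074 reads were exonic. Kcnc1 had 199 exonic reads, with 171 in 6 3' UTR clusters of 16 to 48 reads. All of these except that of 16 reads are also listed under another region. Kcnc4 had 66 reads, all in 2 3' UTR clusters, and Kcnc2 had 60 exonic and 330 intron reads.

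Silent subunits do not form channels by themselves and modify Kv2 channels. The 6 genes with a cluster had 63.9% of their 739 reads in exons. Kcnf1 led with 171 reads in 4 3' UTR clusters and 41 reads in 2 CDS clusters, which together is 44.3 reads per kb of exon. Its 3' UTR clusters ran from 12 to 82 reads, the deepest at chr12:17172324-17172436. Kcnv1 had 156 exonic reads with 3 3' UTR clusters of 18, 24 and 41 reads. That of 18 reads is also listed under another region, and that of 24 is not centred in its GENCODE 3' UTR. Kcng1 had 26 exonic reads and 1 intron cluster of 214 reads (chr2:168263195-168263331), the third deepest intron cluster of the channel genes. Kcns2, Kcns3 and Kcng3 had 37, 29 and 12 exonic reads.

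The Kcnh genes encode ether-a-go-go type channels, and their exonic reads lay mostly in coding sequence. They had 15 CDS and 4 3' UTR clusters. Kcnh5 had 190 exonic reads in 6 CDS clusters and none in the 3' UTR, which GENCODE gives as 287 bases. Its deepest, with 62 reads (chr12:74897957-74898100), lay in the last of 11 exons. Kcnh1 had 159 exonic reads, 86 in 3 CDS clusters and 73 in 3 3' UTR clusters. Kcnh7 had 1046 intron reads and a single exonic cluster, in the 5' UTR (chr2:63184169-63184314), whose 92 reads made it the deepest 5' UTR cluster of the channel genes. Kcnh2 and Kcnh3 had 56 and 61 exonic reads, all in the CDS, and Kcnh8 had 20, all in the 3' UTR.

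Kv4 channels and their KChIP partners together make the somatodendritic A-type current. Summed over each family, their reads lay mostly in introns, though not in Kcnd1 and Kcnip2. In the Kv4 genes 9.63% of 1922 reads were exonic, and in the KChIP genes 1.70% of 7073, of which Kcnip4 held 6548. Kcnd2, which encodes the main dendritic A-type subunit of hippocampal pyramidal cells, had 99 exonic reads and 1294 intron reads in 56 clusters. Of its exonic reads, 55 lay in a cluster on the first of 6 exons (chr6:21216317-21216489) and 34 in the 5' UTR, and none lay in its 3' UTR of 2463 bases. Kcnd3 had 70 exonic and 431 intron reads, and Kcnd1 had 16 exonic and 12 intron reads. Kcnip2 had 102 exonic reads in 3 3' UTR clusters of 14, 31 and 57 reads, and 72 intron reads. Kcnip3 had 18 exonic and 236 intron reads, while Kcnip1 and Kcnip4 had no exonic cluster.

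Calcium- and sodium-activated channels shape the afterhyperpolarization. Kcnma1, the BK channel, had 147 exonic reads, 77 in 3 3' UTR clusters of 15, 23 and 39 reads, and 2416 intron reads in 102 clusters. Its 3' UTR clusters of 15 and 39 reads are also listed under another region, and that of 39 is not centred in its GENCODE 3' UTR. Kcnn3, an SK channel, had 96 exonic reads with 3 3' UTR clusters of 10, 14 and 17 reads, none of them centred in its GENCODE 3' UTR. Kcnn2 had 70 exonic reads, 54 of them in 1 CDS cluster. The auxiliary subunit genes Kcnmb2 and Kcnmb4 had 45 intron reads and 12 exonic reads. Kcnt1, a sodium-activated channel, had 146 exonic reads, 135 of them in 5 CDS clusters. Kcnt2 had 53 exonic reads. Kcnu1, placed here only because it was summed with the Kcnt genes, had 1 intron cluster of 11 reads.

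Kir and K2P genes had fewer reads each. Kcnj10, the inward rectifier known from astrocytes, led the Kir genes with 101 exonic reads, 60 of them in 1 3' UTR cluster, while Kcnj16, its usual partner there, had no cluster. Among subunits of G protein-gated channels, Kcnj9 had 88 exonic reads, Kcnj3 had 46 and Kcnj6 had 13. Kcnj4, Kcnj2 and Kcnj12 had 66, 48 and 40 exonic reads, and Kcnj11 and Kcnj13 had 17 and 14. The 8 K2P genes had 137 exonic reads in all, with 43 for Kcnk1 and 29 for Kcnk3. Kcnk2, Kcnk4, Kcnk9, Kcnk10 and Kcnk12 had 10 to 16 exonic reads each, and Kcnk13 had 1 intron cluster of 14 reads. Kcne1l, the only Kcne gene with a cluster, had 11 reads in its 3' UTR.

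**Figure D2:**
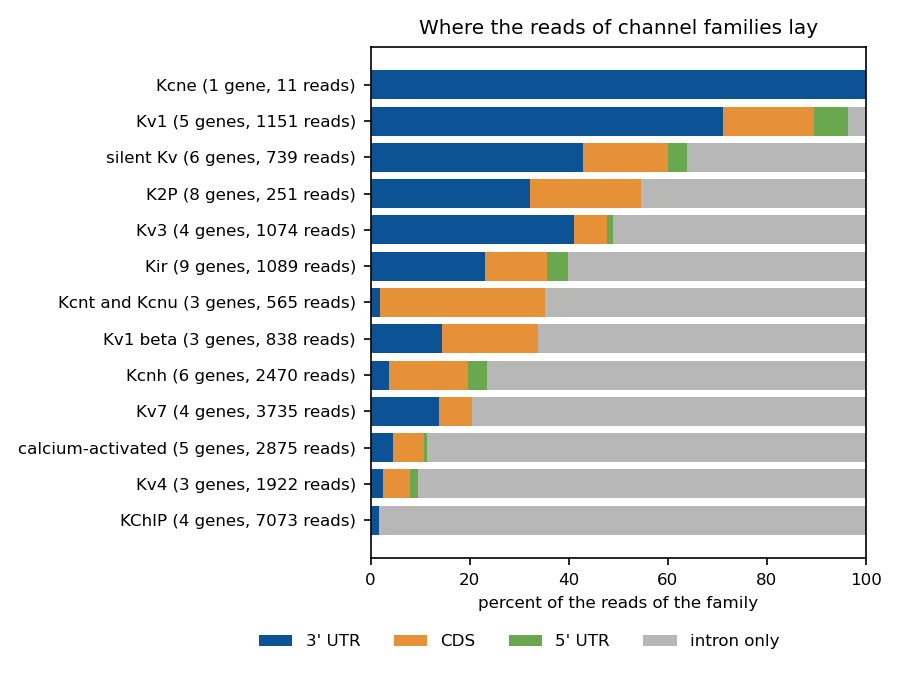
Share of the reads of channel families (x axis, percent of the family's reads) that lay in 3' UTR, CDS, 5' UTR and intron clusters, 1 bar a family; pooled table, no replicates. Apart from Kcne with 11 reads of 1 gene, Kv1 genes have the largest exonic share with 96.4%, and the KChIP genes have the smallest with 1.70%. Shares are not scaled to intron length, which is 1132 kb in Kcnip4 and at most 26.4 kb in a Kv1 gene. Kcnip4 holds 6548 of the 7073 KChIP reads.

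Set beside all other clusters in genes, the channel genes had a smaller share in coding sequence and a larger one in introns. Of 891 clusters, 80 lay in the CDS (8.98%, interval 7.27 to 11.04), against 23.4% of 54937 other clusters. Introns held 690 (77.4%, interval 74.6 to 80.1), against 58.3% of the others. The 3' UTR held 110 (12.3%, interval 10.4 to 14.7), against 16.7%, and the 5' UTR held 11 (1.23%), against 1.61%. In reads, introns took 76.9% for the channel genes and 50.6% for the others. Without Kcnip4, which alone held 150 of the intron clusters, the 3' UTR share was 14.8%. These shares were set side by side without a test, since clusters of 1 gene are not independent.

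Where channel genes did have 3' UTR clusters, these were close to those of other genes in depth and place. The median was 24 reads (quartiles 15 and 39) over 110 channel clusters and 21 reads over 9160 others, and the channel clusters were slightly wider (median 158 bases). Of channel genes with an exonic cluster, 15 of 57 (26.3%) had 3 or more 3' UTR clusters, against 12.9% of other genes. Of the 110 clusters, 95 were centred in a GENCODE 3' UTR, and in these 38 genes they came to 0.763 clusters per kb of 3' UTR, against 0.686 in 4241 other genes. The median position was 38.4% of the way along the 3' UTR in channel genes and 41.2% in others. The last 25% of the 3' UTR held 20.0% of channel clusters (interval 13.2 to 29.1) and 19.6% of the others. The 3' UTR clusters of channel genes were thus not gathered at the end of the UTR in these data.

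**Figure D3:**
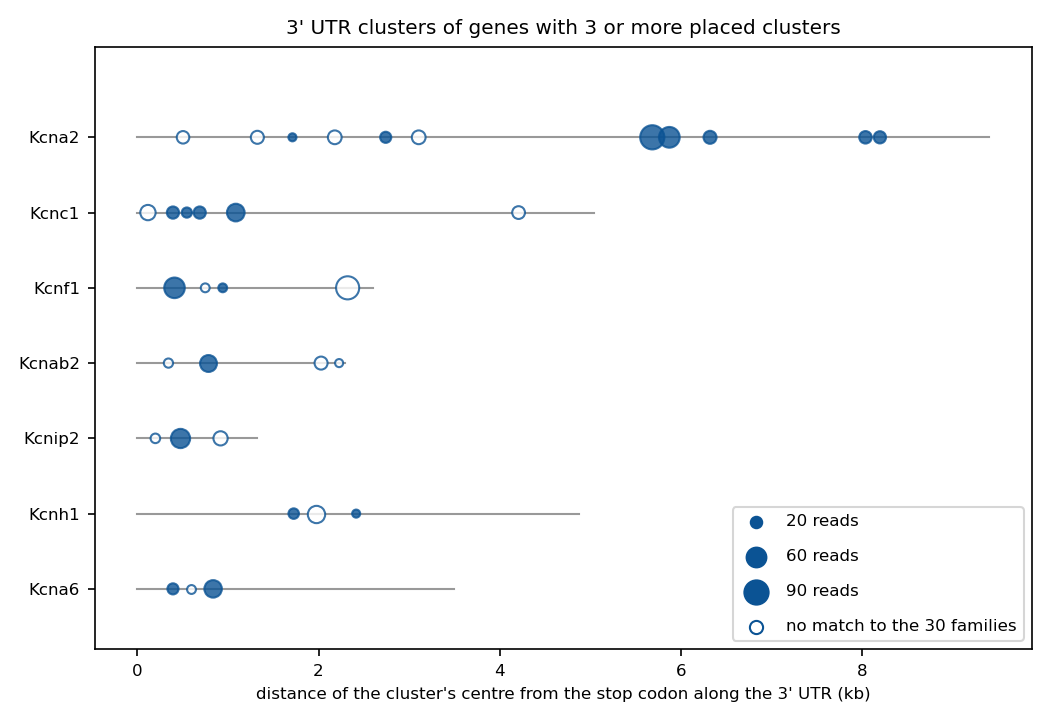
Position of each 3' UTR cluster behind the stop codon (x axis, kb), 1 row a gene. Rows are channel genes described here with 3 or more clusters placed in a GENCODE 3' UTR. The grey line is the 3' UTR, and the size of a circle stands for the reads of the cluster. Open circles hold no match to the 30 miRNA families. The Kcnc1 cluster of 16 reads is placed in a separate 3' UTR of 1368 bases, and the line of Kcnc1 shows that of 5043 bases. Clusters of Kcna2 are spread over a UTR of 9401 bases, and its largest circle stands for 90 reads.

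A long 3' UTR did not always come with clusters. No 3' UTR cluster was listed for 23 of the 63 genes, among them Kcnb2, Kcnk9 and Kcnh7, whose annotated 3' UTRs have 12121, 11030 and 10826 bases. Kcnj6, with 4392 bases, and Kcnj3, with 3329 bases, had none either. Kcnb2, Kcnh7, Kcnj6 and Kcnj3 had 30, 32, 12 and 14 intron clusters, so reads of these genes did reach the table. The table lists clusters of at least 10 reads, and weaker ones are not seen.

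Among the deepest CDS clusters were those of Kcnab1, Kcnh5 and Kcnd2, given above. In the 5' UTR, the clusters of Kcnh7 (92 reads), Kcna1 (53 reads) and Kcnd2 (34 reads) were the deepest of 11. The Kcnd2 5' UTR cluster held matches to 5 of the miRNA families, among them miR-128 and miR-27, and the Kcna1 cluster held none.

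Intron clusters of the channel genes were concentrated in a few very long genes. Kcnip4, whose protein binds Kv4 channels and alters their inactivation, held 150 intron clusters with 6548 reads, which is 33.7% of all intron reads of the channel genes. The next were Kcnma1 with 2416 reads, Kcnq5 with 1413, Kcnq3 with 1381 and Kcnd2 with 1294. Together these 5 genes held 61.9% of the intron clusters and 67.2% of the intron reads. By number of intron clusters, Kcnip4 was 13th and Kcnma1 25th of 6453 genes.

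The number of intron clusters went with intron length. Over 60 channel genes with introns, Spearman's rho was 0.74, and 0.72 without Kcnip4. This is a description across genes, which share the libraries and are not independent. Per 100 kb of intron, Kcnip4 had 13.25 clusters, higher than 83.8% of 6281 other genes with an intron cluster. Kcnq3 had 20.7, Kcnma1 14.4, Kcnd2 11.0 and Kcnq5 10.8. Summed over the 43 channel genes with an intron cluster the value was 8.17 per 100 kb, against 4.90 in the other genes, and the medians were 6.92 and 5.22. The introns of Kcnip4 span 1132 kb, and those of Kcnq3, the densest of these 5 genes, span 285.5 kb.

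**Figure D4:**
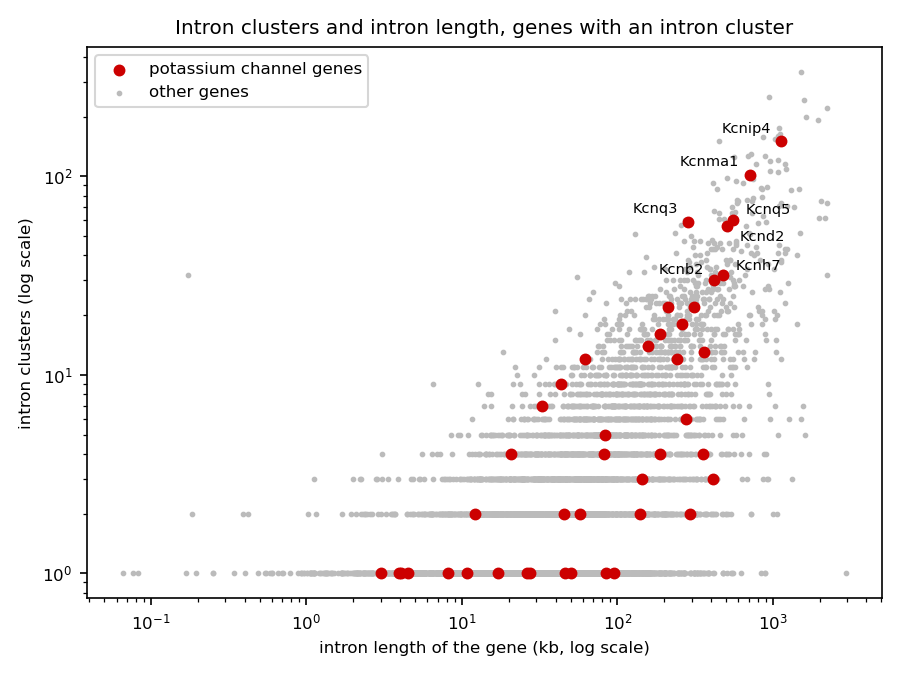
Intron clusters (y axis, number, log scale) against intron length (x axis, kb, log scale) for genes with an intron cluster; red points are the 43 potassium channel genes and grey points 6281 other genes. Kcnip4 and Kcnma1 stand at the top right of the red points with 150 and 102 clusters, and Kcnq3 lies above Kcnq5 and Kcnd2 per length.

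One cluster made up much of Kcnip4. It had 2112 reads in 146 bases (chr5:49026618-49026763), 32.3% of the reads of the gene, while the median Kcnip4 cluster had 20 reads. It was the 18th deepest of all 70142 clusters and the second of 32704 intron clusters. The next deepest, with 350 reads (chr5:49025657-49025859), lay 758 bases further along the gene. All others had 108 reads or fewer, and without the deepest cluster Kcnip4 still had 4436 intron reads, the most of any channel gene. The deepest cluster held a miR-101 seed match, and the next held matches to miR-128 and miR-27.

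Clusters with an entry in the authors' circRNA column were a smaller share in channel genes. They made up 75 of 891 clusters (8.42%, interval 6.77 to 10.4), against 15.98% of other sense clusters. In coding sequence they made up 13 of 80 (16.2%, interval 9.75 to 25.8), against 26.8%. Kcnma1 held 32 of the 75 and Kcnt2 held 7. A circular and a linear transcript share these bases, so the entry does not say which of them was bound.

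Seed matches were counted as in the table, as 6 bases complementary to miRNA bases 2 to 7 that overlap the cluster. Over 30 families known from brain, the 110 3' UTR clusters of channel genes held 223 matches in 19.5 kb, or 11.4 per kb, against 13.1 per kb in those of other genes. No family matched in 25 clusters (22.7%, interval 15.9 to 31.4), against 17.4%. Those 25 include the Kcnf1 cluster of 82 reads. A match of 6 bases also occurs where no miRNA binds, so a match is a description of the letters and not a site of binding.

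The best known brain miRNA, miR-124, had a match in 14 clusters of 7 genes (12.7%, interval 7.74 to 20.2), against 10.3% of other 3' UTR clusters. Among clusters listed in the 3' UTR alone the order turned, with 10.1% in channel genes and 10.4% in others. In Kcna2, 3 clusters had one. Matches to miR-125 lay in 12 clusters of 11 genes (10.9%, interval 6.35 to 18.1), against 6.91%. They included Kcna1, Kcna2, Kcna4, Kcnc1, Kcnc4, Kcnh1 and Kcnq5, which are voltage-gated, and Kcnt1. Matches to miR-128 lay in 11 clusters (10.0%, interval 5.68 to 17.0), against 13.7%.

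The family whose share differed most from other genes, in percentage points, was miR-27. It had a match in 6 of 110 channel clusters (5.45%, interval 2.52 to 11.4), against 13.4% of others. It was the 1 family of 30 whose share in other genes lay outside the interval of the channel genes, and with 30 families set side by side this was not tested. The lower miR-27 share was seen in the 3' UTR only. It was 11.25% against 10.78% in CDS clusters and 11.16% against 10.43% in intron clusters, with other genes second. Lower 3' UTR shares were also seen for miR-29 (4.55% and 8.70%), miR-17/20/93 (1.82% and 5.90%) and miR-132 (3.64% and 7.57%), with other genes second in each pair. Higher 3' UTR shares were seen for let-7/98 (7.27% and 4.10%), miR-137 (5.45% and 3.28%) and miR-221 (8.18% and 5.15%). All of these lay within counting error. No channel cluster matched miR-99/100, which allows a share of up to 2.73% (3 counts of the total); its Wilson interval ends at 3.37%.

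**Figure D5:**
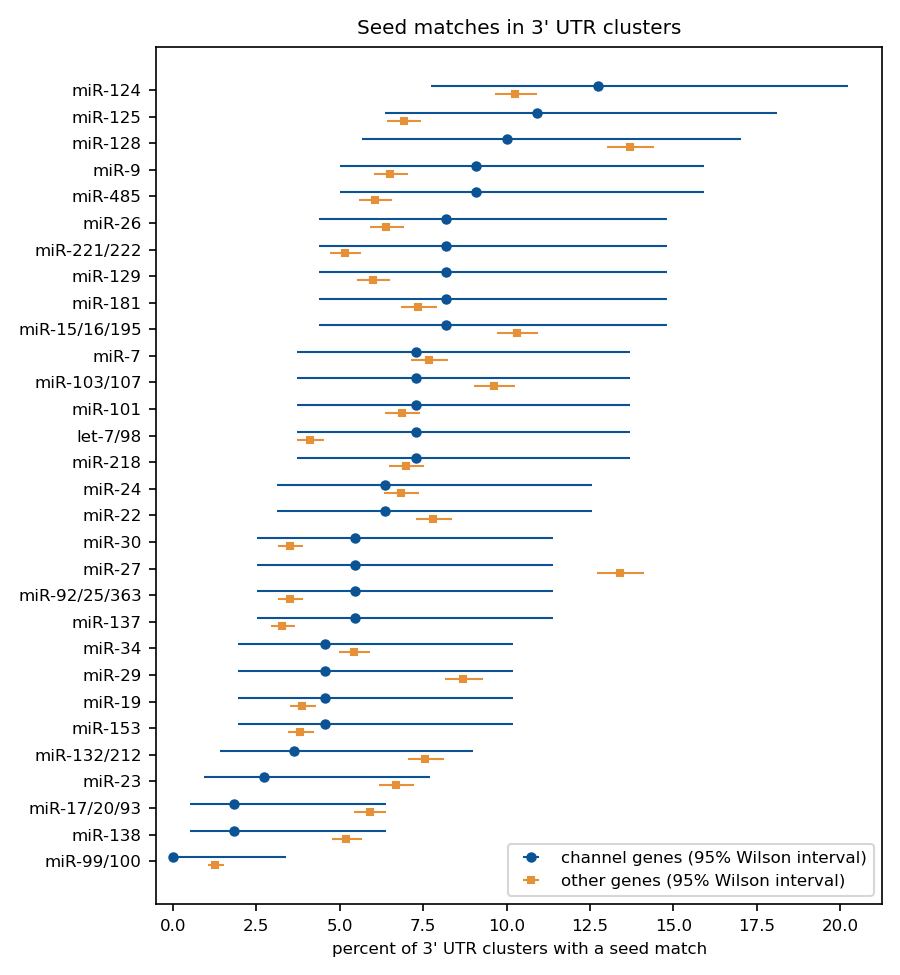
Percent of 3' UTR clusters with a 6-base seed match (x axis) for 30 miRNA families, 1 row a family; blue circles are 110 clusters of potassium channel genes and orange squares 9160 clusters of other genes, both with 95% Wilson intervals. The interval of miR-27 ends at 11.4%, below the 13.4% of other genes, and all other blue intervals hold the orange square.

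Longer matches gave the same order for miR-125 and miR-128 and the opposite order for miR-15/16. In the 98 channel clusters with transcript sequence, matches of at least 7 bases to miR-125 lay in 9.18%, against 4.01% in other genes. For miR-128 the shares were 3.06% and 7.52%, again with the other genes second. For miR-15/16 they were 7.14% and 4.87%, where 6-base matches gave 8.18% in channel genes and 10.3% in others. These 7-base shares rest on few channel clusters and carry no intervals, and their order was not tested. Of 172 placed matches to 27 families in 34 genes, 32 (18.6%) were 8-base matches. Of the 11 placed miR-125 matches, 3 were 8-base, among them that of Kcnt1. The 3 8-base matches to miR-128 included those of Kcnc2 and Kcnk2. They were its only placed matches of at least 7 bases.

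The genes with the most clusters matched the most families. Kcna1 matched 16 of the 30 families over 9 3' UTR clusters, Kcna2 matched 13 over 11 and Kcnc1 matched 9 over 6. In Kcnab2, 3 of 4 clusters held no match to any family. The single cluster of Kcnc2, with 19 reads, matched 8 families.

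Proteins that bind or place potassium channels were looked up as a list of 29 genes. An exonic cluster was present for 21 of the 29 and a 3' UTR cluster for 17, where the shares over all protein-coding genes were 35.7% and 21.5%. The median was 90 exonic reads over the 21, against 48 in the other genes with an exonic cluster. These medians were not scaled to exon length. The ankyrins Ank2 and Ank3, which anchor membrane proteins to the cytoskeleton, had 1322 and 251 exonic reads. The synaptic scaffolds Dlg2 and Dlg4 had 466 and 185, and Dlg2 also had 4667 intron reads in 193 clusters. Dpp6 and Dpp10, transmembrane partners of Kv4 channels, had 67 and 61 exonic reads and 1452 and 1274 intron reads, so that intron reads led there as they did in Kcnd2. Cntnap2, which gathers Kv1 channels beside the node, had 87 exonic and 1721 intron reads. No exonic cluster was listed for Abcc8, Abcc9, Amigo3, Kcnrg, Lrrc26, Lrrc38, Lrrc52 or Lrrc55.

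Kcnq1ot1, the non-coding RNA transcribed against Kcnq1 and known for silencing its imprinted neighbours, held 14 clusters with 332 reads. They ran from 10 to 60 reads with a median of 21. The annotated gene spans 93.1 kb of chromosome 7 (chr7:143203458-143296549). All 14 are listed opposite Kcnq1. Kcnq1 itself had no sense cluster.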

How the data were processed

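BWA and the build mm10 are named in the submitters' processing notes. The BWA version, cluster caller, use of controls and duplicate removal were not given in the sources used. The authors deposited 1 table that holds, per the file headers, the read count of every cluster (whole numbers, no normalization), gene columns, circRNA identifiers and miRNA columns. It has 0 columns of single libraries. The planned edgeR comparison of Flag-Ago2 with control libraries therefore could not be run, and values are described without a test.

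A cluster listed under several regions was counted under the first of 3' UTR, CDS, 5' UTR and intron. GENCODE M21 gave lengths, positions and transcript sequence. For 27 of the 30 families, recounted seed matches equalled the deposited number in 222453 of 222453 values over 8239 clusters. The columns of miR-124, miR-23 and miR-485 were used as the authors gave them. The seed counter was tested on simulated data. Alternatives were a minimum of 20 reads, other region and circRNA rules, 7-base matches, and leaving genes in or out. Python 3.11.15, pandas 2.3.3, numpy 2.4.6, scipy 1.17.1 and matplotlib 3.10.9 were used.

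The members, lists and naming rule were chosen with earlier results of these data known. The rule names the 20 genes with the most exonic reads, genes with 3 or more 3' UTR clusters, the 5 with the most intron reads, genes with no exonic cluster, and the 10 deepest 3' UTR and 5 deepest CDS clusters. Every other gene is given by family. Other single clusters, sites and miRNA families were named after their values were seen. Results of some genes the rule takes are not reported here; counts and shares over the family include them.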

Additional observations from a re-analysis of the deposited data

Results flagged for a closer look

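The antisense column, which the comparisons above do not use, held 22 clusters on the strand opposite a potassium channel gene that named no gene of the family in sense. They carried 371 reads over 17 genes, from 10 to 59 reads a cluster with a median of 13. The deepest, with 59 reads, lay opposite Kcnip1, which had 3 such clusters with 88 reads and 97 reads in sense. They were not set against control libraries, and no test was made.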

How the results depend on the processing

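Of 37 alternative values for the main results, 32 stayed close to the value reported. A count was called close within a ratio of 1.5. Several of the 32 could not move. No channel cluster named more than 1 gene, so keeping only clusters that name 1 gene changed nothing. Counting every listed region cannot change the total reads, the clusters or the genes with a cluster. Genes with an exonic cluster fell from 57 to 40 at a minimum of 20 reads, which counted as close. With clusters of 20 or more reads, the channel genes had 453 clusters, 26 genes had a 3' UTR cluster and the median 3' UTR cluster had 34.5 reads; each follows from dropping shallow clusters. Without Kcnip4, chosen after seeing the data, the 3' UTR share was 14.8%. Matches of at least 7 bases came to 5.84 per kb, fewer by construction. The 13 alternatives for single miRNA families covered miR-124, miR-125, miR-128, miR-485 and miR-15/16. The lower miR-27 share was not put through them. Of these 13 alternatives, 12 stayed close, and miR-128 stood at 3.06% with 7-base matches. Set against other genes, the order turned for miR-124 in clusters listed in the 3' UTR alone (10.1% and 10.4%) and for miR-15/16 with 7-base matches (7.14% and 4.87%), with other genes second; the cause was not tested. Adding Kcnq1ot1, also chosen after seeing the data, left all 7 main results close to the values reported.

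No paired analysis was possible because the table separates no libraries. The DESeq2, filter, replicate and block alternatives of the Flag-Ago2 comparison were not run for the same reason. The table starts at 10 reads a cluster, so a gene without a cluster is not shown to be unbound. The cell types of origin, the controls and transcript abundance are not resolved in a pooled count.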
